A study of Mus musculus with 15 samples.

Results

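Mouse spleen B cells activated for 4 h with lipopolysaccharide (LPS) were compared here with mouse spleen T cells activated for 4 h with concanavalin A (ConA), 3 arrays against 3, across 9045 genes. These 6 arrays belong to a series of 15 arrays, and the 3 arrays each of B and T cells taken at 0 h served to date every difference. The series asks, by its title, how the transcription factor Myc acts on gene expression in general. All cells came from spleens of mice labelled B6x129, a mixed strain background, and the labels name no engineered allele. B cells received 25 ug/ml LPS and T cells 7.5 ug/ml ConA in RPMI medium; the 0 h cells received neither. The remaining 3 arrays, T cells after 14 h with ConA, entered the estimate of the spread. The labels do not give the age of the mice, how the cells were purified, or if separate mice or cultures stand behind the replicates, so every p-value measures the spread between these samples, which may be technical. Lineage and stimulus differ together between the 2 groups at 4 h and cannot be told apart, and no group was cultured without a stimulus.

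B and T lymphocytes share a common precursor and carry antigen receptors of related design, but they read antigen through different signalling chains and answer with different outputs. LPS is a component of bacterial walls that acts through Toll-like receptor signalling and drives B cells, independently of their antigen receptor, towards division and antibody secretion. ConA is a plant lectin that cross-links glycoproteins on the T cell surface, the T cell receptor among them, and so starts calcium, NFAT and MAP kinase signalling and cytokine production.

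Every level given below is a log2 signal, every difference is the B cell mean less the T cell mean on that scale, and a value of 1 is a 2-fold difference. One probe set stood for each gene. Of 18194 genes with a probe set, 9045 reached a group mean of 5 in at least 1 group and were tested. A gene high in only 1 group passes through that group, which partly sets the counts of lists with such genes. At the edge of this filter Zfp444, with a highest group mean of 5.003, passed and Abcc3, with 4.9985, did not. The table has a floor at 2.24, so a difference whose lower group averaged under 4 is a lower bound. That applied to 237 of the 1054 genes at least 2-fold higher in B cells (22.5%) and to 519 of the 2256 at least 2-fold higher in T cells (23.0%).

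The arrays carried the lineage named on their labels. All 7 tested B cell markers were higher in B cells at 4 h and all 8 tested T cell markers in T cells. The summed T cell markers lay between 6.36 and 6.82 in activated B cells and between 15.01 and 15.18 in activated T cells, and 7 of the 8 averaged under 4 in B cells. Summed B cell markers lay between 8.49 and 8.78 in activated T cells and between 14.53 and 14.81 in activated B cells. Markers of other cells were present too. The erythroid genes summed to between 13.52 and 13.63 in activated B cells against 12.22 to 12.28 in activated T cells, with 6 of 7 tested higher in B cells. The macrophage and neutrophil genes summed to between 11.67 and 11.89 against 10.81 to 11.26, with 4 of 10 tested higher in B cells and 2 in T cells. An 18S ribosomal RNA control averaged 6.39 in activated B cells and 11.15 in activated T cells, and the dap spike-in gave a 3' signal above its 5' signal by 5.35 on T cell replicate 1 against 1.49 and 1.46 on replicates 2 and 3 and at most 0.54 on the activated B arrays. Other spike-ins lay on both sides. A bioB 3' probe set averaged 8.87 in activated B cells and 7.96 in activated T cells, and a lys 3' probe set 4.13 and 5.86. The part of these signals in the differences below was not tested. Correlations between arrays of one group were at least 0.9947 across genes, and those between activated B and activated T arrays lay between 0.9189 and 0.9275.

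Most genes differed between the activated lineages, and more were higher in T cells than in B cells. Of the 9045 genes, 7053 (78.0%) passed the test at 4 h, 2524 (27.9%) higher in B cells and 4529 (50.1%) higher in T cells. Counts of list members given below are to be read beside the 27.9% and the 50.1%. At least 2-fold differences numbered 1054 (11.7%) towards B cells and 2256 (24.9%) towards T cells, 36.6% of all genes. At 0 h 76.6% of the genes passed the test. The arrays of the groups did not overlap for 7206 genes (79.7%). The median difference over all genes was -0.26 at 4 h and -0.27 at 0 h. Renormalizing moved the T cell share of the called genes from 64.2% to 56.2% (cyclic loess) or 68.5% (equal array medians), and the median difference to -0.11 or -0.35, so a small difference is to be read against that median.

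**Figure D1:**
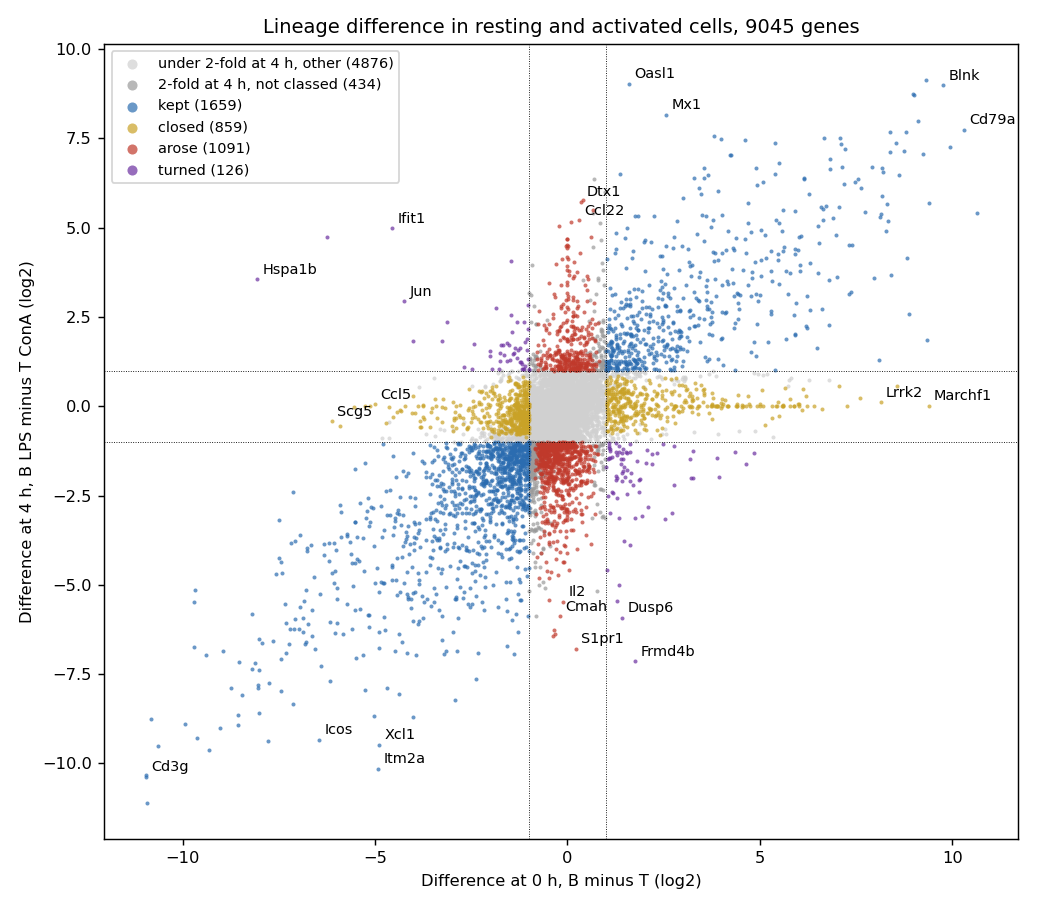
B minus T difference at 0 h (horizontal, log2) and at 4 h (vertical, log2) for the 9045 genes tested, coloured by class, with dotted lines at 2-fold. The kept genes (545 towards B, 1114 towards T) lie in the upper right and lower left, the turned genes (50 and 76) in the other corners, the arose genes (344 and 747) above and below the centre, and the closed genes to its left and right.

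The genes at least 2-fold apart in activated cells fell into 4 classes. A difference was kept if it was also at least 2-fold and called at 0 h in the same direction, and turned if it was so in the opposite direction. It arose if the 95% confidence interval of the 0 h difference lay within 2-fold and the change in the difference, the interaction between lineage and time, was called. The rest, whose 0 h interval reached beyond 2-fold or whose interaction was not called, were classed as between. Among the 1054 genes higher in B cells, 545 (51.7%) were kept, 344 (32.6%) arose, 50 (4.74%) had turned and 115 (10.9%) were between. Among the 2256 genes higher in T cells, 1114 (49.4%) were kept, 747 (33.1%) arose, 76 (3.37%) had turned and 319 (14.1%) were between. Taking for each gene the probe set with the largest variance gave 1794 genes at least 2-fold higher in B cells, of which 1115 were kept and 234 were between. The interaction was called for 5982 of the 9045 genes (66.1%).

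Looking forward from 0 h, 2944 genes (32.5%) were at least 2-fold apart and called, 1105 higher in B cells and 1839 in T cells. Of the B cell genes 545 (49.3%) were kept, 76 (6.88%) turned and 379 (34.3%) closed, meaning that the 95% interval of the 4 h difference lay within 2-fold and the interaction was called. Of the T cell genes 1114 (60.6%) were kept, 50 (2.72%) turned and 480 (26.1%) closed. In both lineages together 1659 of 2944 genes (56.4%) were kept. Kept differences were not fixed in size: 87 of the 545 B cell genes widened by at least 2-fold and 154 narrowed, against 269 widened and 160 narrowed among the 1114 T cell genes.

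The new differences were reached by different routes. Among the 344 that arose towards B cells, the B cell mean was at least 2-fold above its own 0 h mean in 263 with no such fall in T cells. In 31 the T cell mean alone was at least 2-fold below its 0 h value, in 11 both applied, and in 39 neither move was 2-fold. Among the 747 that arose towards T cells, the B cell mean alone was at least 2-fold below its 0 h value in 538, the T cell mean alone was at least 2-fold higher in 73, both applied in 8 and neither in 128. Genes whose new difference favoured T cells were thus mostly ones whose level was lower in B cells at 4 h than at 0 h. In bulk samples, fewer cells of a type and less RNA per cell cannot be told apart.

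**Figure D2:**
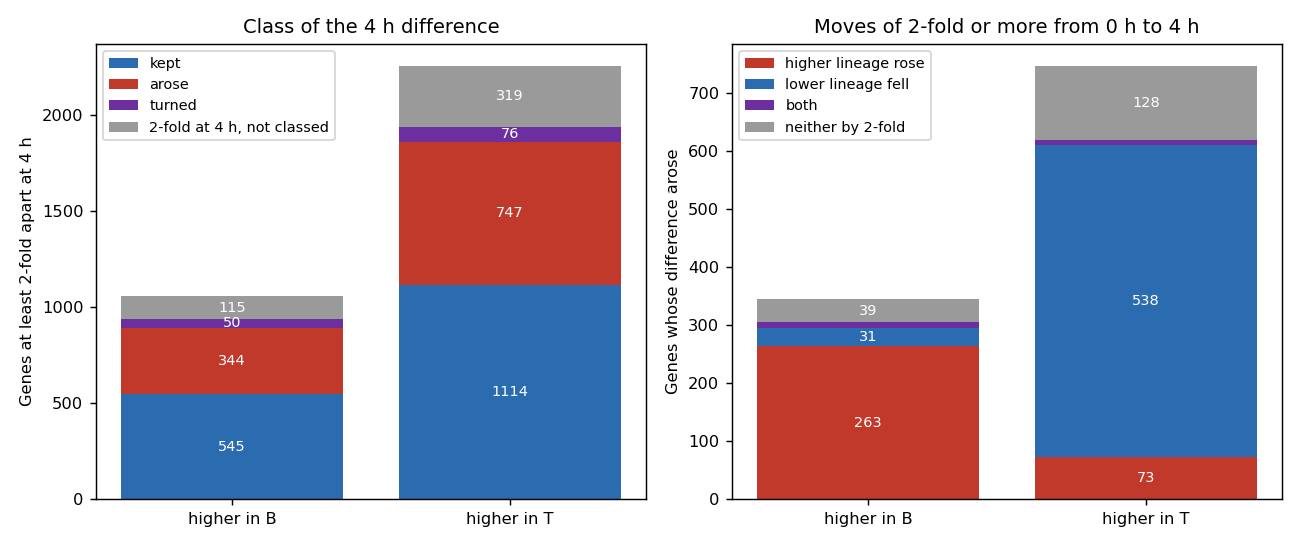
Number of genes in each class by the lineage with the higher level, and, for the genes whose difference arose, the lineage whose mean moved by at least 2-fold from 0 h to 4 h. The B cell mean alone was higher in 263 of the 344 genes that arose towards B cells and alone lower in 538 of the 747 that arose towards T cells.

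The B cell receptor apparatus stayed with B cells. All 19 tested genes of the receptor and its coreceptors were higher in B cells, all 19 were kept, and their median difference was 6.48 at 4 h and 8.29 at 0 h, beside -0.26 and -0.27 over all genes. Fcrl1, an Fc receptor-like surface protein of B cells, had the largest difference towards B cells among the genes named by rule. It stood at 12.24, 12.34 and 12.22 on the B arrays and at 3.02, 3.02 and 3.36 on the T arrays, a difference of 9.13 ± 0.11 (SE, adjusted p = 6.88e-17). Blnk, the adaptor that links the receptor to downstream enzymes, stood at 12.47, 12.38 and 12.41 against 3.38, 3.43 and 3.47, a difference of 8.99 ± 0.06 (adjusted p = 5.04e-19). Neither gene came near overlap between the lineages. Ly6d, a surface protein used to stage B cell precursors, stood at 12.37, 12.41 and 12.44 against 3.50, 3.78 and 3.80 (8.71 ± 0.15), and Rasgrp3, an activator of Ras, at 10.23, 10.25 and 10.16 against a T cell mean of 2.53 (7.68 ± 0.09).

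Several of these differences narrowed with a lower B cell level at 4 h. Cd79a, one of the signalling chains of the receptor, stood at 10.22, 9.93 and 10.09 in activated B cells against 2.34 on each T array, a difference of 7.74 ± 0.07; the B cell mean was 12.65 at 0 h. Cd22, an inhibitory coreceptor, averaged 13.60 at 0 h and 8.64 at 4 h in B cells, and its difference went from 8.42 to 3.68. Btk, the kinase downstream of the receptor, averaged 9.96 and then 6.61, with differences of 6.79 and 3.54. Cd180, a relative of the Toll-like receptors, was the smallest, with 1.02 ± 0.12 at 4 h after 4.36 at 0 h. By contrast Tnfrsf13c, the receptor for the survival factor BAFF, averaged 12.47 and 13.27 in B cells and kept a difference of 7.50. Cd72 widened from 3.54 to 6.67, its T cell mean being 8.67 at 0 h and 6.27 at 4 h.

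B lineage transcription factors split. Of 15 tested, 10 were higher in B cells and 5 in T cells, with a median of 3.12. Spib, an Ets factor of B and plasmacytoid cells, stood at 11.41, 11.29 and 11.34 against 3.15, 3.45 and 3.47 (7.99 ± 0.11, adjusted p = 3.12e-16). Ebf1, which specifies the B lineage, stood at 11.02, 10.79 and 10.57 against 4.44, 2.88 and 3.63 (7.15 ± 0.27). Pax5, the factor that holds B cell identity, kept 4.29 after 4.63. Pou2f2, the octamer factor Oct-2, widened from 3.59 to 5.34. Irf8 narrowed from 5.67 to 1.89, with a T cell mean of 6.62 at 0 h and 10.69 at 4 h.

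The 5 factors on the T cell side had not been there at 0 h. Ikzf3, the zinc finger protein Aiolos, was 2.10 higher in B cells at 0 h and 2.82 ± 0.12 lower at 4 h, and Id3, an inhibitor of E proteins, went from 1.56 to -1.30; both were turned. Bach2, a repressor of effector and plasma cell programmes, stood at 9.22, 9.14 and 9.24 in activated B cells and at 12.45, 12.40 and 12.46 in activated T cells. Its difference was 0.37 at 0 h and -3.23 ± 0.05 at 4 h (adjusted p = 1.92e-15), so it arose. Nfatc1 lay at -0.99 and Bcl6, a follicular factor, at -0.37 after 1.92 at 0 h.

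Antigen presentation on MHC class II remained a B cell property, though at reduced distance. Of 12 tested genes 10 were higher in B cells, all of them kept, with a list median of 3.50 at 4 h and 5.68 at 0 h. H2-Ab1, a class II chain, stood at 14.32, 14.37 and 14.27 against 8.89, 8.59 and 8.67 (5.60 ± 0.08), and Cd74, the invariant chain, at 14.57, 14.68 and 14.74 against 9.58, 9.12 and 8.71 (5.52 ± 0.16). Ciita, the class II transactivator, narrowed from 6.79 to 2.29 as its B cell mean was 9.10 at 0 h and 4.70 at 4 h. H2-DMa, a chain of the peptide-loading DM complex, turned, from 4.36 to -1.28 ± 0.08. Marchf1, the ubiquitin ligase that removes class II and CD86 from the surface, stood at 11.70, 11.51 and 11.69 in B cells at 0 h and at 2.28, 2.24 and 2.24 at 4 h. On the T arrays it was at or near the floor throughout, so its difference went from 9.39 to 0.01 ± 0.06.

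The Toll-like receptor pathway showed a similar narrowing. Of 16 tested genes 9 were higher in B cells and 1 in T cells, with a median of 0.51 at 4 h and 2.11 at 0 h. Tlr7, an endosomal RNA sensor, stood at 8.79, 8.79 and 8.68 against 2.25, 2.24 and 2.24 (6.51 ± 0.06). Ly86, the partner of Cd180, kept 7.68 ± 0.10, and Unc93b1, which carries endosomal receptors to their compartment, kept 6.23 ± 0.11. Tlr4, the LPS receptor itself, stood at 7.30, 6.67 and 6.98 in B cells at 0 h and at 2.24 on every other array at 0 h and 4 h. Its coreceptor Ly96 differed by 3.78 at 0 h and 0.24 ± 0.17 at 4 h, which did not pass (adjusted p = 0.218). The shared adaptors Myd88 (0.14 ± 0.08) and Traf6 (0.17 ± 0.13) did not pass either. The macrophage markers Csf1r (9.33 in B cells at 0 h, 2.37 at 4 h) and Adgre1 (7.40 and 3.41) moved in the same sense as Tlr4 and Ly96. They belong to 10 tested macrophage and neutrophil markers, of which 4 closed, 2 were kept and 2 turned. The part of such cells was not tested.

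On the T cell side the receptor list was as one-sided. All 23 tested genes of the T cell receptor complex, its coreceptors and proximal kinases were higher in T cells and all 23 were kept, with a median of -7.74 at 4 h and -7.79 at 0 h. Cd3g, a signalling chain of the receptor, stood at 2.29, 2.29 and 2.24 on the B arrays and at 12.83, 12.60 and 12.51 on the T arrays, a difference of -10.37 ± 0.09 (adjusted p = 3.96e-18). Cd3d followed at -10.32 ± 0.15. Cd28, the main costimulatory receptor, stood at 3.63, 2.79 and 2.83 against 12.34, 12.90 and 12.88 (-9.62 ± 0.23), and Trat1, a receptor-associated adaptor, at 2.24 on each B array against 11.60, 11.60 and 11.63 (-9.37 ± 0.07). Itm2a, a membrane protein of activated T cells, widened from -4.91 to -10.15 ± 0.16, with 3.14, 2.96 and 2.64 against 12.76, 13.16 and 13.26. Cd247, the zeta chain (-9.28 ± 0.08), Cd27, a costimulatory receptor (-9.01 ± 0.08), and Cd5, an inhibitory receptor (-8.94 ± 0.08), differed as much as at 0 h within 1 log2 unit.

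Some members widened with a lower B cell level at 4 h. Cd2, an adhesion receptor of both lineages in the mouse, averaged 10.93 in B cells at 0 h and 5.72 at 4 h against 12.31 and 12.67 in T cells, so its difference went from -1.39 to -6.95 ± 0.10. Lcp2, the adaptor SLP-76, went from -4.38 to -8.05 and Ptpn22, a phosphatase that restrains receptor signalling, from -1.22 to -5.42, each with a lower B cell mean at 4 h. Other members narrowed with the T cell level: Thy1 averaged 11.95 in resting and 8.98 in activated T cells, and Themis 9.60 and 6.87. Fyn, a kinase, had the smallest difference, -1.40 ± 0.07.

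T lineage transcription factors were higher in T cells in 12 of 14 cases, 11 of them kept, with a median of -4.98. Bcl11b, required for T cell identity, stood at 3.28, 3.39 and 2.93 against 12.09, 12.17 and 11.99 (-8.88 ± 0.13). Gata3 (-6.64 ± 0.08) and Tox (-7.29 ± 0.18) were as wide at 4 h as at 0 h within about 1 log2 unit. Tbx21, the factor of type 1 helper and cytotoxic cells, widened from -4.16 to -6.92, the T cell mean being 7.07 at 0 h and 9.16 at 4 h. Ets1 went from -0.90 to -4.11 while its B cell mean was 13.21 at 0 h and 9.53 at 4 h. Runx3, a factor of cytotoxic T cells, was the exception and arose towards B cells, from -0.79 to 1.53 ± 0.09; its B cell mean was 9.14 and then 10.31 and its T cell mean 9.93 and then 8.78.

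Of 9 tested granule and NK receptor genes 8 were higher in T cells and 6 kept, with a median of -4.22. Gzmb, a granule protease, stood at 3.03, 2.79 and 2.47 against 9.75, 9.71 and 9.69 (-6.95 ± 0.12), and its T cell mean had been 7.91 at 0 h. Klrd1, the NK receptor chain CD94, differed by -7.93 ± 0.18. All 4 tested NK markers were higher in T cells, while Ncr1, a defining NK receptor, stayed below level 5 in every group; what NK cells contributed was not tested. Of 17 chemokine receptors and homing molecules 4 were higher in B cells and 11 in T cells, beside 27.9% and 50.1% of all genes. Cxcr6 (-8.60 ± 0.11) and Ccr9 (-6.06 ± 0.20) stood on the T cell side, Cxcr5, which guides cells to follicles, on the B cell side with 13.57, 13.55 and 13.58 against 6.39, 6.37 and 6.30 (7.21 ± 0.16). Ccr7, the receptor for lymph node entry and the border of the T zone, turned from -1.74 to 1.70 ± 0.13, its B cell mean being 10.68 at 0 h and 14.12 at 4 h.

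Of 24 cytokine receptors tested, 8 were higher in B cells and 14 in T cells, beside 27.9% and 50.1% of all genes, with a median of -0.99 beside -0.26. Averaging the probe sets of each gene gave 10 and 13, with a median of -0.38. The probe set of largest variance gave 10 and 12, with a median of -0.34. Il18r1 (-6.61 ± 0.11), Il6ra (-6.42 ± 0.13), Il2rb (-5.85 ± 0.11) and Il6st, the chain shared by the IL-6 family (-5.64 ± 0.09), were kept on the T cell side. Il7r, the survival receptor of resting T cells, narrowed from -9.69 to -5.16. Il2ra, the inducible chain of the IL-2 receptor, was high in both activated lineages, 10.26 in B cells and 9.15 in T cells, after 2.47 and 5.16 at 0 h. Its difference turned from -2.70 to 1.10 ± 0.13. Il1r2, a decoy receptor for IL-1, arose towards B cells (3.78 ± 0.09).

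Of 21 interferon-stimulated genes tested, 20 were higher in B cells at 4 h, with a median of 4.04 against 0.10 at 0 h. At 0 h the members lay on both sides, with 6 at least 2-fold higher in B cells and 4 in T cells. Those higher in B cells comprised 6 that were kept, 6 that arose, 3 that turned, 4 between and Bst2, whose 0.92 was below 2-fold. These genes answer type I interferon through the factor ISGF3 and IRF proteins, which bind an element with a repeated GAAA core in the promoter, the ISRE. Within 250 bases before to 50 after the transcription start, the core, written here as GAAA, any 2 bases and GAAA again, or the same on the other strand as a pair of TTTC, was found in 10 of the 15 list members with a RefSeq promoter (66.7%) and in 293 of all 7431 genes with one (3.94%). It was present in 8 of 39 genes that turned towards B cells (20.5%) and in 0 of 59 that turned towards T cells. A match describes the letters and not a bound site.

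The promoters of Ifit1, the gene with the largest turn among the named genes of this list, and Rsad2, which was high in B cells at both times, are shown because they carry that core in front of a turned and a kept gene. The 250 bases before the start are given 5′ to 3′ on the gene's strand, from RefSeq on GRCm38.p6, with the ISRE core and, in Rsad2, the AP-1 motif TGANTCA in capitals. The Ifit1 stretch is chr19:34640639-34640888 (plus strand), with cores starting 104 and 85 bases before the start, and the Rsad2 stretch is chr12:26456453-26456702 (minus strand), with a core 120 and an AP-1 motif 87 bases before it.
Ifit1: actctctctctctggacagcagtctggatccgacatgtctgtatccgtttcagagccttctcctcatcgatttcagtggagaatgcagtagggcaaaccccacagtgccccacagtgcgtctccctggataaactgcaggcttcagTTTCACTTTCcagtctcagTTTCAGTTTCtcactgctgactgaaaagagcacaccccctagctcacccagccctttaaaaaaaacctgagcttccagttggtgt
Rsad2: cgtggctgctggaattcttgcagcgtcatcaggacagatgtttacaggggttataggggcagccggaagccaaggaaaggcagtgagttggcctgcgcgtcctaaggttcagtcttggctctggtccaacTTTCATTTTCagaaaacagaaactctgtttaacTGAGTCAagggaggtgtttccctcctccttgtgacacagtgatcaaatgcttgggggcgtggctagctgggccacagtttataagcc

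Short stretches around the core in 5 other members show the same repeat at differing distances from the start. The capitals mark the ISRE core. The Cxcl10 stretch lies at chr5:92349083-92349112 (minus strand, 213 bases before the start), Ifit3 at chr19:34583363-34583392 (plus, 156), Oas1a at chr5:120907520-120907549 (minus, 14), Stat2 at chr10:128270266-128270295 (plus, 222) and Gbp2 at chr3:142620594-142620623 (plus, 59). In Oas1a a second core, 20 bases before the start, overlaps the one shown.
Cxcl10: tcacgctttgGAAAGTGAAActtacctcac
Ifit3: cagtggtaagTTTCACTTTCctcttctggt
Oas1a: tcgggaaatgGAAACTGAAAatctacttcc
Stat2: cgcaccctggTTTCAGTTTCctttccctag
Gbp2: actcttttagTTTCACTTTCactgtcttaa

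Oasl1, an OAS-like protein that inhibits translation of Irf7, stood at 12.25, 12.35 and 12.26 in activated B cells and at 3.26 on each activated T array. The difference was 9.03 ± 0.32 (adjusted p = 6.34e-12), after 1.60 at 0 h when the B arrays read 6.03, 4.75 and 4.10. Mx1, an antiviral GTPase, stood at 10.43, 10.40 and 10.39 against 2.24, 2.24 and 2.25 (8.16 ± 0.14, after 2.57). Both genes separated further at 4 h with no overlap between arrays. Rsad2, the antiviral enzyme viperin, was already at 10.53, 10.49 and 10.57 in B cells at 0 h and stood at 11.12, 11.16 and 11.30 at 4 h, against 3.79, 3.60 and 3.60 in T cells (7.53 ± 0.11).

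Ifit1, which binds viral RNA, moved from one lineage to the other. At 0 h it read 2.35, 2.75 and 2.31 in B cells and 7.05, 7.35 and 6.68 in T cells; at 4 h it read 9.85, 9.80 and 9.85 in B cells and 5.45, 4.54 and 4.54 in T cells. Its difference went from -4.56 to 4.99 ± 0.22, an interaction of 9.55 ± 0.31 (adjusted p = 9.48e-12). Usp18, which removes ISG15 from proteins and restrains the interferon receptor, turned from -1.48 to 4.06 ± 0.13, and Ifit2 from -1.86 to 2.74 ± 0.09. Mx2 averaged 6.75 in activated B cells and 2.24 in activated T cells and in both lineages at 0 h. Cmpk2, a mitochondrial nucleotide kinase, differed by 6.38 ± 0.32 and Irf7, the factor that amplifies the interferon response, by 3.11 ± 0.11. Dhx58, an RNA helicase of the same response outside the list, read 9.07, 9.04 and 8.79 against 3.37, 3.51 and 3.53 and arose (5.49 ± 0.14).

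Gbp2, a guanylate-binding protein induced by interferon gamma, was the 1 list member higher in T cells. It averaged 13.84 in activated T cells and 8.31 in activated B cells, -5.53 ± 0.08 after -2.48 at 0 h. Its promoter carries the same core, as printed above. Ifng itself, the cytokine, stood at 3.18 on each activated B array and at 8.69, 8.40 and 8.43 on the activated T arrays.

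**Figure D3:**
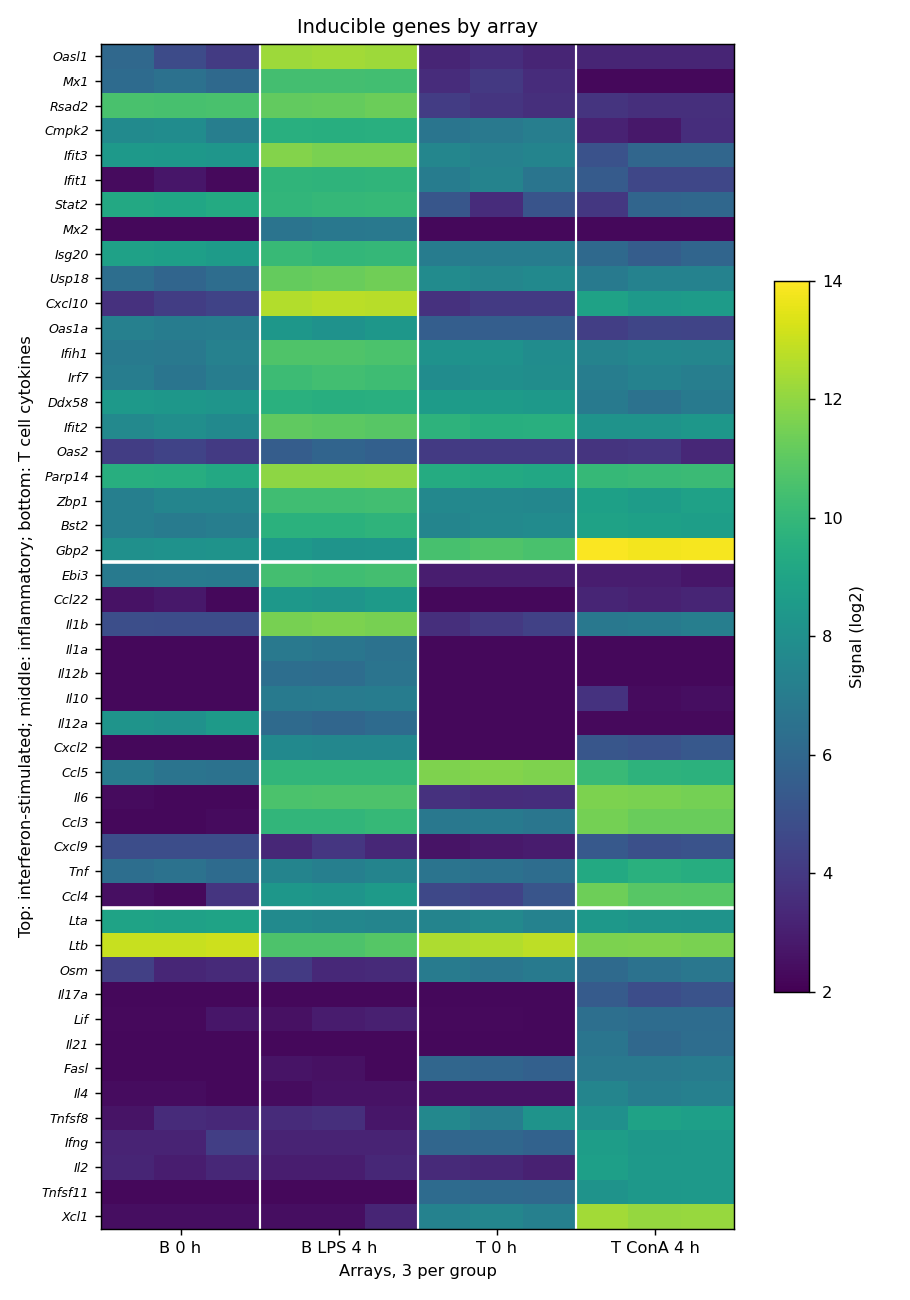
Log2 signal of 21 interferon-stimulated genes, 14 further inflammatory cytokines and chemokines and 13 T cell cytokines on the 12 arrays of B and T cells at 0 h and 4 h, colour from 2 to 14. The B cell 4 h arrays are bright for 20 of the 21 interferon genes and for Il1b, Ebi3 and Ccl22, and the T cell 4 h arrays for Gbp2, Xcl1 and Il2.

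Of 15 inflammatory cytokines and chemokines tested, 9 were higher in activated B cells and 5 in activated T cells, beside 27.9% and 50.1% of all genes. Among them 7 differences arose, 4 were kept, 1 turned and 1 closed. Members at a low level in every group but activated B cells, such as Il1a, were tested only because of their level there. The count is therefore partly set by the filter on low values. With a highest group mean of at least 7, 6 of 12 were higher in B cells and 5 in T cells. Ebi3, a subunit of IL-27 and IL-35, stood at 10.39, 10.32 and 10.40 in B cells and at 2.96, 2.96 and 2.71 in T cells (7.50 ± 0.10). Ccl22, a chemokine for activated and regulatory T cells, stood at 8.39, 8.25 and 8.54 against 3.23, 3.10 and 3.23 (5.21 ± 0.12, adjusted p = 4.41e-14). Every 0 h array read 2.77 or less. In T cells at 14 h Ccl22 averaged 7.63, so the difference holds for 4 h. Il1b stood at 11.55, 11.65 and 11.55 against 6.80, 6.88 and 7.14 (4.64 ± 0.15).

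Several others were near the floor outside activated B cells. Il1a averaged 6.68 there and 2.24 in activated T cells, Il12b 6.41 against 2.24, and Il10, an inhibitory cytokine, 6.98 against 2.86 in activated T cells. In the other direction, Tnf arose towards T cells (-2.12 ± 0.12) and Ccl4 was kept there (-2.66 ± 0.31). Il6 was high in both, 10.63 in B cells and 11.57 in T cells, after 2.27 and 3.61 at 0 h, a difference of -0.94 ± 0.07. Ccl5, a T cell chemokine at 0 h with 11.71 against 6.70, read 9.92, 9.92 and 9.90 in activated B cells and 10.12, 9.74 and 9.71 in activated T cells. Its arrays overlapped at 4 h and its difference of 0.06 ± 0.12 did not pass (adjusted p = 0.669).

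Markers of cells that also make these products moved unevenly. The macrophage marker Mpeg1 was 4.91 higher in activated B cells, Lyz2 differed by -0.04 ± 0.19, Csf1r was at 2.37 in B cells and 2.43 in T cells, and the neutrophil genes S100a8 (7.19 in B cells and 10.19 in T cells) and S100a9 (5.49 and 8.65) were higher in activated T cells. Among dendritic cell markers Zbtb46 arose towards B cells (4.50 ± 0.13), Flt3 was kept (4.65 ± 0.26) and Itgax was at 2.34 and 2.32. Their summed level lay between 9.68 and 10.05 in activated B cells against 5.99 and 6.23 in activated T cells. The part of such cells in the inflammatory list was not tested.

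All 13 tested T cell cytokines and effector ligands were higher in activated T cells, as were 50.1% of all genes. Their median was -4.45 against -0.25 at 0 h, and 6 were kept and 5 arose. Members at a low level in every group but activated T cells, such as Il2, were tested only because of their level there. The count and the median are therefore partly set by the filter on low values. Xcl1, a chemokine for cross-presenting dendritic cells, stood at 2.46, 2.46 and 3.25 on the B arrays and at 12.34, 12.11 and 12.15 on the T arrays. It differed by -9.47 ± 0.17 (adjusted p = 2.87e-15) after -4.89 at 0 h. Il2, the T cell growth factor, stood at 2.96, 2.96 and 3.33 against 8.77, 8.43 and 8.49 (-5.48 ± 0.13, adjusted p = 1.09e-13); at 0 h no array of either lineage was above 3.43. It averaged 9.44 in T cells at 14 h.

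Il4 (-4.73 ± 0.10), Il21 (-4.10 ± 0.20), Lif (-3.47 ± 0.14) and Il17a (-2.88 ± 0.11) likewise arose, from group means of 2.60 or less at 0 h. Tnfsf11, the ligand RANKL, stood at 2.24 on each B array and at 8.16, 8.41 and 8.48 on the T arrays, -6.11 ± 0.09 after -3.88. Ifng differed by -5.33 ± 0.21 after -2.38. Lta closed, from 1.45 to -0.66. A further 7 list members, among them Il3, Il13, Csf2 and Cd40lg, stayed below level 5 in every group.

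Of 21 costimulatory and coinhibitory genes tested, 9 were higher in B cells and 10 in T cells, beside 27.9% and 50.1% of all genes, and 14 were kept. Cd86, a ligand of CD28, averaged 12.82 in activated B cells and 5.78 in activated T cells (7.04 ± 0.18, after 4.24 at 0 h) and Cd80, its companion, 7.41 and 2.28 (5.13 ± 0.21, after 0.84). Cd40 differed by 7.35 ± 0.19. Icos, the inducible relative of CD28, stood at 2.34, 2.83 and 3.63 against 12.32, 12.23 and 12.26 (-9.34 ± 0.23, after -6.45), and its ligand Icosl was 5.28 ± 0.16 higher in B cells. Ctla4 (-6.32 ± 0.14), Pdcd1 (-5.01 ± 0.09) and Tnfrsf9 (-5.09 ± 0.09) were each wider apart than at 0 h. Cd44, an adhesion receptor that marks activation in T cells, arose towards B cells (2.18 ± 0.11), and Cd274, the ligand PD-L1, differed by 0.31 ± 0.06.

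**Figure D4:**
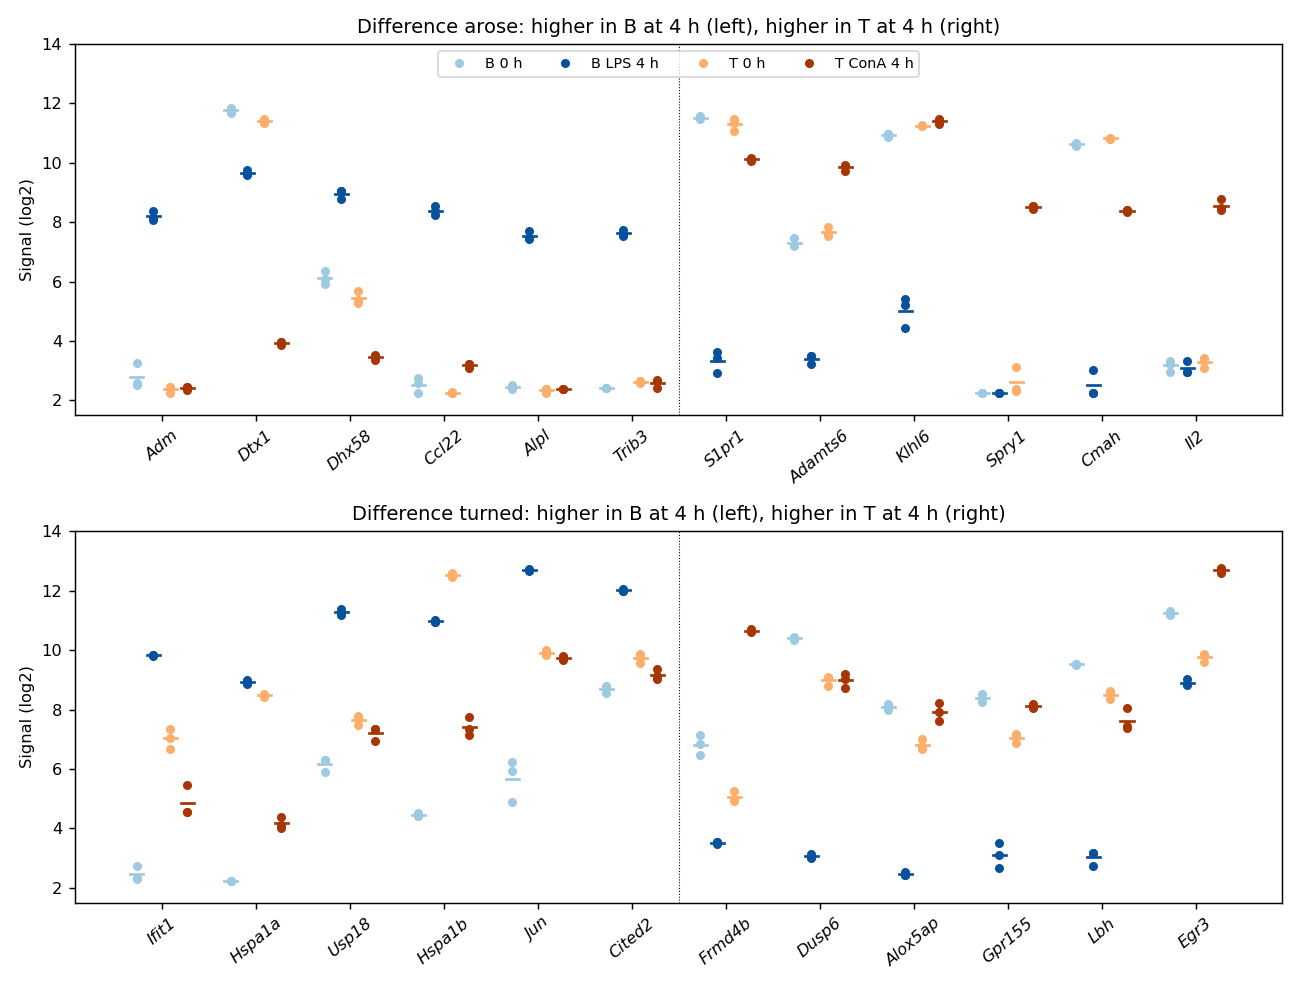
Log2 signal per array (dots) and group mean (bars) of 12 genes whose difference arose and 12 whose difference turned, in B and T cells at 0 h and 4 h. Dtx1 and S1pr1 were alike in both lineages at 0 h, and at 4 h Dtx1 stood near 3.93 in T cells and S1pr1 near 3.32 in B cells; Ifit1 and Jun crossed from T to B cells and Frmd4b and Egr3 from B to T cells.

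Of the genes whose difference arose, Dtx1 and S1pr1 form a mirror image. Dtx1, a Deltex ubiquitin ligase of the Notch pathway, averaged 11.77 in resting B cells and 11.42 in resting T cells. At 4 h it stood at 9.63, 9.58 and 9.75 in B cells and at 3.95, 3.86 and 3.97 in T cells, a difference of 5.73 ± 0.07 (adjusted p = 1.46e-16). S1pr1, the sphingosine phosphate receptor that lets lymphocytes leave lymphoid organs, averaged 11.52 and 11.30 at 0 h. At 4 h it stood at 3.62, 2.91 and 3.43 in B cells and at 10.07, 10.18 and 10.09 in T cells, a difference of -6.79 ± 0.14 (adjusted p = 2.64e-14).

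Other large new differences towards B cells came from genes near the floor at 0 h. Adm, the peptide hormone adrenomedullin, stood at 8.38, 8.07 and 8.15 against 2.47, 2.47 and 2.36 (5.76 ± 0.16). Alpl, an alkaline phosphatase, differed by 5.16 ± 0.08 and Trib3, a pseudokinase of the stress response, by 5.04 ± 0.08, with 0 h means under 3 in both lineages. Zbtb46 and Il1r2, named above, belong to the same class.

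Towards T cells the largest new differences were of both kinds. Klhl6, an adaptor of a ubiquitin ligase in lymphocytes, read 10.97, 10.86 and 10.97 in B cells at 0 h and 5.22, 4.44 and 5.41 at 4 h, while activated T cells read 11.32, 11.46 and 11.45 (-6.39 ± 0.18). Cmah, which hydroxylates sialic acid, went the same way, from 10.67, 10.58 and 10.63 to 2.25, 3.04 and 2.25 in B cells (-5.88 ± 0.16). Spry1, an inhibitor of receptor tyrosine kinase signalling, was at 2.26 on every B array and read 8.55, 8.44 and 8.54 in activated T cells after 2.40, 3.13 and 2.31 at 0 h (-6.25 ± 0.15). Adamts6, a secreted protease, combined both moves, with B cell readings of 7.23, 7.20 and 7.48 at 0 h and 3.23, 3.51 and 3.48 at 4 h and T cell readings of 7.84, 7.61 and 7.54 and then 9.72, 9.91 and 9.93 (-6.44 ± 0.11).

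Turned differences were few, 50 towards B cells and 76 towards T cells. Hspa1a and Hspa1b, near-identical copies of the inducible heat shock protein HSP70 whose signals cannot be assigned to one copy with certainty, both turned towards B cells. The Hspa1a probe set read 2.24 on each B array and 8.52, 8.44 and 8.48 on the T arrays at 0 h, then 8.91, 8.87 and 8.98 in B cells and 4.37, 4.12 and 4.02 in T cells, so the difference went from -6.24 to 4.75 ± 0.08. The Hspa1b probe set went from -8.07 to 3.56 ± 0.12.

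Jun, a component of AP-1, read 5.92, 6.22 and 4.89 in B cells and 9.85, 9.89 and 10.01 in T cells at 0 h. At 4 h it read 12.73, 12.67 and 12.70 in B cells and 9.80, 9.77 and 9.68 in T cells, so that its difference went from -4.24 to 2.95 ± 0.23 (adjusted p = 3.66e-08) with T cells near their 0 h level. Cited2, a transcriptional coregulator, turned from -1.02 to 2.84 ± 0.11.

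In the other direction Frmd4b, a scaffold protein with a FERM domain, turned from 1.75 to -7.13 ± 0.14, reading 3.48, 3.54 and 3.54 in activated B cells and 10.63, 10.61 and 10.72 in activated T cells. Dusp6, a phosphatase that switches off the kinase ERK, read 3.14, 3.01 and 3.05 against 8.74, 9.03 and 9.21 (-5.92 ± 0.11, after 1.42), the B cell mean at 0 h being far above its 4 h value with 10.45, 10.41 and 10.35. Egr3, a zinc finger factor downstream of calcium and NFAT, read 9.04, 8.85 and 8.83 against 12.59, 12.72 and 12.76 (-3.78 ± 0.09, after 1.48). Alox5ap (-5.46 ± 0.14), Gpr155 (-5.02 ± 0.17) and Lbh (-4.58 ± 0.16) completed the named set. Of the 76, the B cell mean alone was at least 2-fold lower than at 0 h in 52, both lineages moved in 23 and T cells alone in 1.

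The motif TGANTCA, which AP-1 factors bind and which is its own reverse complement, was found in the 300-base windows of 10 of 59 genes that turned towards T cells (16.9%), in 1 of 39 that turned towards B cells (2.56%) and in 419 of all 7431 (5.64%). It was also in 4 of 15 interferon-stimulated genes (26.7%) and in 4 of 12 inflammatory cytokines and chemokines (33.3%), lists with most members higher in B cells. The windows of Frmd4b, which had the largest turned difference, and H2-DMa, the class II gene that turned, both hold it and are shown for that reason, with the motif in capitals. The Frmd4b stretch is the 250 bases before the start at chr6:97459287-97459536 (minus strand), with the motif 133 bases before it, and that of H2-DMa lies at chr17:34125422-34125448 (plus strand), 86 bases before the start.
Frmd4b: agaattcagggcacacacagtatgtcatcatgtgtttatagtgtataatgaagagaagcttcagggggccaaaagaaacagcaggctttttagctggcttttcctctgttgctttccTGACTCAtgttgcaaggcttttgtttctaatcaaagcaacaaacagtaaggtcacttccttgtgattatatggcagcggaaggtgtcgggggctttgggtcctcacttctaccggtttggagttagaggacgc
H2-DMa: tgttgagcttTGAGTCAaggattaagc

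In total 859 differences closed. Beside Marchf1, described above, the named genes on the B cell side were mostly near the floor in both lineages at 4 h. Trim7, a ubiquitin ligase, read 10.86, 10.88 and 11.05 in B cells at 0 h and 3.05, 3.15 and 2.55 at 4 h, with a difference of 8.58 and then 0.57 ± 0.12. Lrrk2, a large kinase, went from 8.14 to 0.11 ± 0.14 and Pld4, a nucleic acid exonuclease of endosomes, from 7.59 to 0.24 ± 0.09. Cyp4f18, a fatty acid hydroxylase, went from 7.06 to 0.56 ± 0.17, with B cells at 6.28, 6.02 and 6.21 and T cells at 5.53, 5.53 and 5.77 at 4 h. C1qa, a complement chain made by macrophages, read 9.34, 9.64 and 9.52 in B cells at 0 h and 2.24 on all arrays at 4 h. The macrophage markers Csf1r (6.63 at 0 h, -0.06 at 4 h), Cd5l (3.73 and 0.00) and Vcam1 (8.89 and 2.58) moved in the same direction, Vcam1 without closing. Not all such markers did: of the 10 tested macrophage and neutrophil markers 4 closed, 2 were kept and 2 turned. The part of such cells was not tested. On the T cell side Scg5 (-6.12 at 0 h), Lypd6b (-5.91), Pdlim4 (-5.55), Slc16a5 (-5.26) and Ampd1 (-5.13) all stood between 2.24 and 3.30 on every array at 4 h.

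Other differences closed with both lineages at a high level. Irf4, a factor of lymphocyte activation, averaged 9.99 in resting B cells, 4.85 in resting T cells, 12.62 in activated B cells and 13.15 in activated T cells, so a difference of 5.15 became -0.54 ± 0.19. Cd69, an early activation marker, averaged 13.27 and 13.26 at 4 h (0.01 ± 0.11, adjusted p = 0.917) after -1.17. Nr4a1, an orphan nuclear receptor, averaged 12.07 and 12.40, a difference of -0.33 ± 0.10 after -1.22.

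NF-kappaB is the factor family that Toll-like receptors and antigen receptors both activate. Of 19 tested NF-kappaB subunits, inhibitors and targets 17 were higher in B cells, beside 27.9% of all genes. Their median was 0.95 against 0.37 at 0 h, so most differences were small. Cd83 stood at 14.67, 14.77 and 14.80 against 10.29, 10.55 and 10.57 (4.28 ± 0.10), Nfkbie, an inhibitor, differed by 3.03 ± 0.09, and Rel, a subunit, by 2.69 ± 0.16. All 3 were kept. Bcl2l1, the survival protein Bcl-xL, arose, reading 10.68, 10.57 and 10.75 against 8.32, 7.95 and 7.85 (2.63 ± 0.10). Tnfaip3, the feedback inhibitor A20, differed by 0.32 ± 0.06, and the subunits Rela (-0.51 ± 0.08) and Relb (-0.70 ± 0.09) were higher in T cells.

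Among 21 calcium, NFAT and immediate early genes 14 were higher in T cells and 3 in B cells, beside 50.1% and 27.9% of all genes. The list median was -0.99. Averaging the probe sets of each gene gave 12 and 6 of 20, with a median of -0.41. Nr4a2 stood at 5.72, 5.65 and 5.58 against 10.89, 10.71 and 10.92 (-5.19 ± 0.15), Egr2 at 8.20, 8.20 and 7.72 against 12.93, 12.58 and 12.90 (-4.76 ± 0.14) and Fosl2, an AP-1 subunit, at 6.32, 6.24 and 6.26 against 10.57, 10.79 and 10.60 (-4.38 ± 0.09). Nab2, a corepressor of EGR factors, differed by -4.08 ± 0.23. Fos narrowed from -7.50 to -3.18, the B cell mean being 3.84 at 0 h and 7.83 at 4 h. The 3 on the B cell side were Jun (2.95), Batf (0.94) and Atf3 (0.36).

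Myc, the subject of the series, was higher in activated B cells. It stood at 12.15, 11.81 and 12.07 on the B arrays and at 8.37, 10.21 and 10.19 on the T arrays, with no overlap, a difference of 2.42 ± 0.43 or 5.35-fold (adjusted p = 0.000145). At 0 h the levels were 6.92, 7.21 and 7.29 in B cells and 8.38, 6.88 and 7.80 in T cells, a difference of -0.54, and the interaction was 2.96 ± 0.61 (adjusted p = 0.00069). Activated T cell replicate 1, whose dap spike-in signal was weak at the 5' end, read lowest at 4 h, and without it the difference was 1.81 (adjusted p = 0.000165). T cell replicate 2 at 0 h had a weak 5' signal too, with dap 4.52 brighter at the 3' end against 1.96 and 1.93 on the other 0 h T arrays, and read lowest for Myc at 0 h. Without both arrays the interaction was 2.75 (adjusted p = 2.7e-06). For actin the 3' signal exceeded the 5' signal by 0.91 on activated T cell replicate 1, against 0.56 and 0.67 on replicates 2 and 3. On T cell replicate 2 at 0 h it did so by 0.495, against 0.459 and 0.393 on replicates 1 and 3. The part of labelling or RNA quality in the interaction was not tested. Of 11 tested members of the Myc network 5 were higher in B cells and 4 in T cells, beside 27.9% and 50.1% of all genes. Max, the obligate partner, differed by 0.91 ± 0.19. The antagonists Mxd4 (means of 3.20 and 7.08) and Mxd1 (6.34 and 8.44) arose towards T cells, by -3.88 ± 0.17 and -2.10 ± 0.13.

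Growth genes were higher in B cells by small amounts. Of 30 tested ribosome biogenesis genes 27 were higher in B cells and 1, Dkc1, in T cells. The median difference was 0.82 at 4 h and -0.57 at 0 h, against -0.26 and -0.27 for all genes, and 7 arose. Wdr74 stood at 11.71, 11.77 and 11.90 against 9.75, 9.95 and 9.89 (1.93 ± 0.07), Polr1b, a subunit of RNA polymerase I, at 10.85, 10.60 and 10.70 against 8.93, 9.03 and 9.07 (1.71 ± 0.13), and Bop1 differed by 1.29 ± 0.07. Ncl, the abundant nucleolar protein nucleolin, differed by 0.82 ± 0.14 and Npm1 by 0.19 ± 0.06.

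Among 22 nucleotide, one-carbon and polyamine genes 12 were higher in B cells, 2 in T cells and 8 did not pass, with a median of 0.58 at 4 h and -0.68 at 0 h. Mthfd2, a mitochondrial folate enzyme, stood at 11.37, 11.43 and 11.41 against 9.23, 9.83 and 9.81 and turned (1.78 ± 0.14 after -1.57). Ctps, which makes CTP, arose (1.26 ± 0.08), whereas Cad, which starts pyrimidine synthesis, differed by -0.17 ± 0.11. Cholesterol synthesis held the most turned genes of any list: of 16 tested 10 were higher in B cells, 5 turned and 6 closed, with a median of 0.54 at 4 h and -1.30 at 0 h. Sqle, which epoxidizes squalene, stood at 10.06, 10.05 and 9.99 against 8.45, 8.56 and 8.60 (1.49 ± 0.07 after -1.76), and Idi1, Mvd, Fdps and Msmo1 turned as well. Ebp, a sterol isomerase, went the other way (-1.76 ± 0.07).

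Of 18 tested glycolysis genes 5 were higher in B cells and 8 in T cells, beside 27.9% and 50.1% of all genes. Their median was -0.37 beside -0.26. Hk2, the inducible hexokinase, stood at 10.12, 10.09 and 10.21 against 7.72, 7.82 and 7.73 (2.38 ± 0.21), while Hk1 was higher in T cells (-2.05 ± 0.14). Pdk1, which turns pyruvate away from mitochondria, was kept on the T cell side (-4.53 ± 0.19), and Ldha (-0.03 ± 0.08) and Gapdh (0.05 ± 0.09) did not pass.

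Cell cycle entry genes lay on both sides. Of 17 G1 genes 9 were higher in B cells and 5 in T cells, beside 27.9% and 50.1% of all genes. E2f2 stood at 8.97, 8.71 and 8.74 against 4.31, 4.21 and 3.73 (4.72 ± 0.20) and Ccne2, a cyclin E, differed by 3.40 ± 0.17. Ccnd2, the cyclin D of mitogen-stimulated lymphocytes, turned from -3.27 to 1.83 ± 0.08. Cdkn1b, the inhibitor p27, stood at 8.41, 8.21 and 7.95 against 11.64, 11.18 and 11.24 (-3.16 ± 0.13), and Rbl2, p130, arose (-3.05 ± 0.17).

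Genes linked to quiescence and Foxo factors were higher in T cells in 16 of 20 cases and higher in B cells in 0, beside 50.1% and 27.9% of all genes. The median was -1.32 after -0.46. With the probe set of largest variance 12 of 19 were higher in T cells and 4 in B cells. Averaging probe sets gave 16 and 2 of 20. Sesn3 stood at 7.71, 7.68 and 8.17 against 11.71, 11.94 and 11.92 (adjusted p = 5.04e-13), after a difference of 0.25 at 0 h, and Klf2, which maintains resting lymphocytes and drives S1pr1, averaged 9.30 against 11.83 (-2.54 ± 0.07 after -0.59). Slfn1 (-7.08 ± 0.16) was kept, and Txnip (-0.04 ± 0.09) and Btg1 (-0.01 ± 0.09) did not pass. Of 8 Gimap GTPases, which support lymphocyte survival, 7 were higher in T cells, beside 50.1% of all genes. Gimap7 was level at 0 h (10.09 and 10.19) and stood at 4.46, 3.85 and 3.83 against 8.66, 8.22 and 8.32 at 4 h.

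In the Bcl2 family 6 of 11 were higher in B cells and 3 in T cells, beside 27.9% and 50.1% of all genes. Bmf, a death-promoting member, stood at 8.29, 8.26 and 7.78 against 2.94, 3.24 and 3.08 (5.03 ± 0.14) and was kept with Bid on the B cell side, while Bcl2 itself was kept on the T cell side (-2.09 ± 0.08). Of 15 TGF-beta, Notch and Wnt genes 4 were higher in B cells and 7 in T cells, where 27.9% and 50.1% of all genes were called. Lef1 (-5.81 ± 0.24) and Notch1 (8.02, 7.90 and 8.08 against 11.54, 11.54 and 11.33, -3.47 ± 0.20) were kept with T cells, and Ctnnb1, beta-catenin, differed by less than its SE of 0.05.

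Erythroid genes stood among the largest differences. Slc4a1, the band 3 anion exchanger of red cells, read 11.55, 11.56 and 11.45 in activated B cells and 2.80, 2.71 and 2.80 in activated T cells (8.75 ± 0.15), and at 0 h the B cell mean was 12.69. Alas2, the erythroid enzyme of haem synthesis (6.70 ± 0.06), and Klf1, the erythroid Krüppel-like factor (4.30 ± 0.10), were kept too, while Car1 was higher in T cells (-1.63 ± 0.11). In T cells the summed erythroid genes lay between 12.57 and 12.65 at 0 h and between 12.22 and 12.28 at 4 h, when 6 of the 8 averaged under 4. These values show erythroid transcripts in the samples of both lineages at both times. The number of such cells cannot be read from them.

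**Figure D5:**
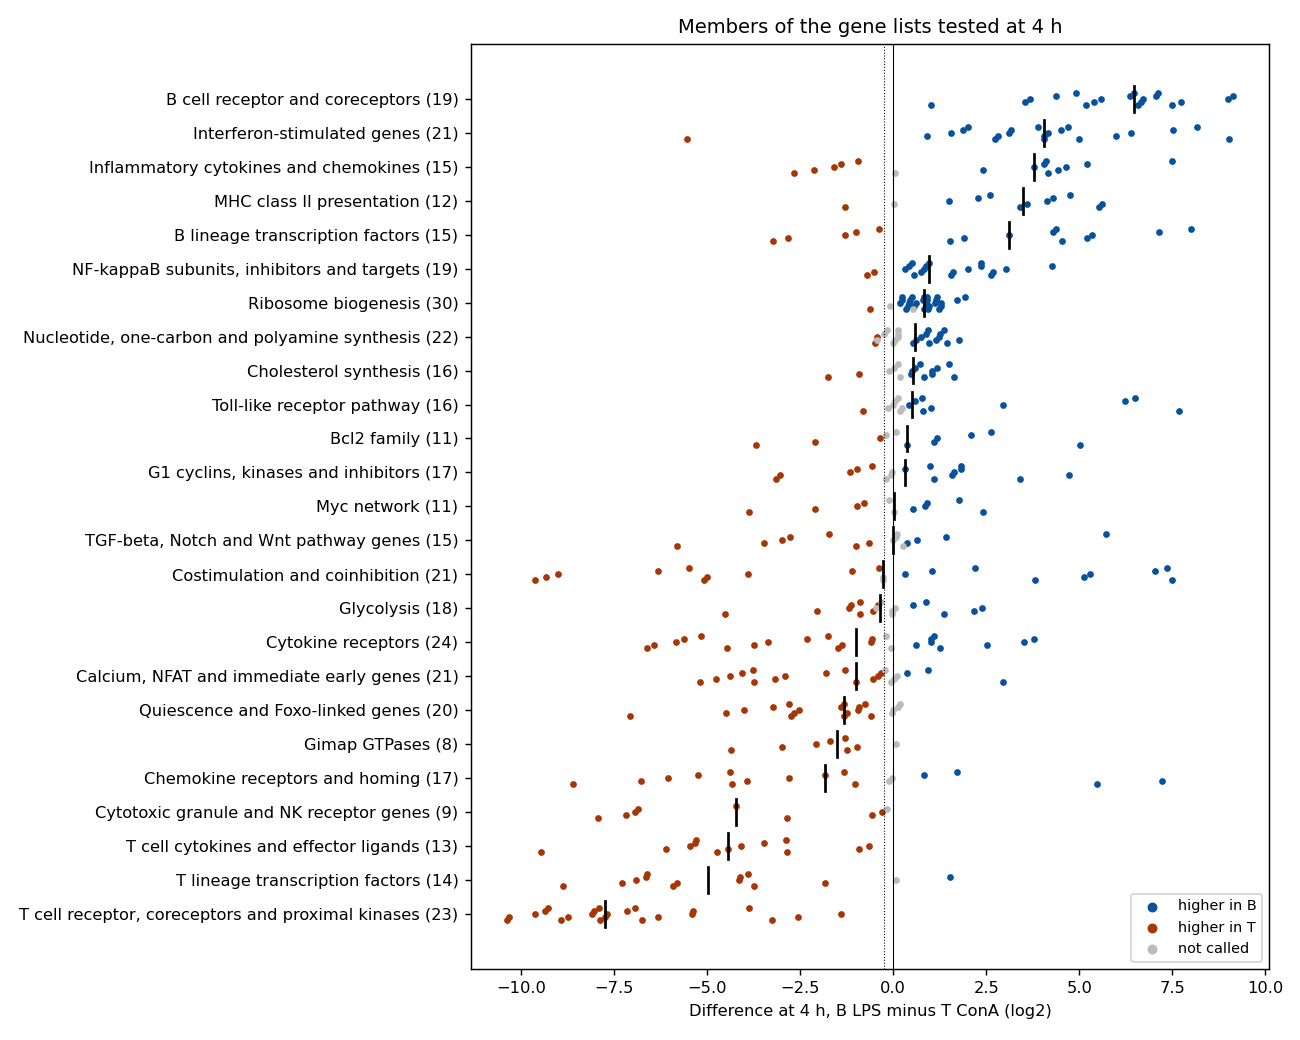
Difference between activated B and activated T cells (log2) for each tested member of the gene lists, 1 dot per gene, with a black bar at each list's median and a dotted line at the median of all genes, -0.26. The B and T cell receptor lists lie at opposite ends (6.48 and -7.74), the interferon list at 4.04 and the T cell cytokines at -4.45, with ribosome biogenesis close together at 0.82.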

How the data were processed

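Expression of mouse spleen B and T cells was measured on Affymetrix arrays from 100 ng of total RNA with the 3' IVT Express kit, per the labels' protocols. The deposited values are log2 signals from GCRMA, which corrects for background and normalizes arrays to each other, run by the authors per the submitters' processing notes; no version of it is given. Depth is not defined for arrays, and the 3 arrays per group limit the precision. Since equal RNA mass was labelled, these values do not show how much RNA a cell held.

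Of 45101 probe sets, those with 1 gene symbol were used, taking for each gene its brightest by the mean of the 15 arrays, and genes with a highest group mean of at least 5 were tested. A group-means model over all 15 arrays, which share one estimate of the spread, used R 4.3.3 and limma 3.58.1 (lmFit and eBayes; 10 residual and 3.16 prior degrees of freedom). The contrasts were B less T at 4 h, B less T at 0 h and their difference, the interaction. Benjamini-Hochberg adjustment ran over the 9045 genes, and a gene was called at an adjusted p under 0.05. Errors after ± are standard errors of that fit.

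The comparison, its gene lists (25 pathway and 9 marker lists) and the alternatives were chosen with earlier results of these data known, so counts over lists are descriptions. Genes named were Myc, the 10 largest differences in each direction, the 6 largest in each direction among those that arose and those that turned, and the 6 largest 0 h differences on each side among those that closed. These were taken among genes that averaged at least 7 in the higher lineage with arrays that did not overlap, leaving out antigen receptor segments, Xist and unnamed transcripts. The rule also took up to 4 called members with the largest difference from each list, not all of which are described. Other list members named in the text, including those that went against their list, were chosen after their values were seen. Some list members are not reported here.

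Promoter sequences and coordinates are from RefSeq on GRCm38.p6, matched by symbol for 7431 of the 9045 genes, and motifs were searched on both strands. Beside the ISRE core and AP-1, the kB, CRE, heat shock element and PU.1 motifs were searched, and most of their shares are not reported here. PU.1 was in 10.2% of genes that turned towards T cells, 2.56% that turned towards B cells and 4.01% of all. The heat shock element was in 0 of 39 genes that turned towards B cells. On simulated data for B less T at 4 h, with 50 genes per size among 9045, the fit called 100% of 2-fold and 82% of 1.5-fold differences, with 11 false calls among 8845 unchanged genes. It classed 100% of 4-fold differences at 4 h alone as arisen and 98% of 3-fold turned ones. The changed genes of this simulation averaged at least 7, its noise was independent between arrays, and most of its genes were unchanged. These rates therefore do not carry over to genes near the floor or to shifts shared by an array. Alternatives covered the filter, the normalization, the probe set rule, the arrays sharing the spread, the prior, a test against 2-fold, a replicate block and leaving out arrays.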

Additional observations from a re-analysis of the deposited data

Results flagged for a closer look

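For the genes below the difference between B and T cells at 4 h differed from that at 0 h by the test of the interaction in limma, and the value given is the 4 h difference less the 0 h difference on the log2 scale. Genes whose difference moved towards B cells in activated cells were Myc (2.96), the new differences of Adm (5.36), Dtx1 (5.38), Dhx58 (4.82), Ccl22 (4.92), Alpl (5.06) and Trib3 (5.27), and the turned genes Ifit1 (9.55), Hspa1a (10.99), Usp18 (5.54), Hspa1b (11.63), Jun (7.19) and Cited2 (3.87).

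Towards T cells moved the new differences of S1pr1 (-7.00), Adamts6 (-6.08), Klhl6 (-6.07), Spry1 (-5.90), Cmah (-5.69) and Il2 (-5.37), and the turned genes Frmd4b (-8.88), Dusp6 (-7.35), Alox5ap (-6.73), Gpr155 (-6.37), Lbh (-5.61) and Egr3 (-5.26).

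Differences that closed from the B cell side were Marchf1 (-9.37), Trim7 (-8.01), Lrrk2 (-8.03), Pld4 (-7.35), C1qa (-7.26) and Cyp4f18 (-6.50). From the T cell side Scg5 (5.70), Lypd6b (5.36), Pdlim4 (5.52), Slc16a5 (5.26), Ampd1 (5.13) and Ccl5 (5.07) closed. These genes were chosen for such a pattern by the rule for named genes, so their number is no measure of how common it is; 5982 of 9045 genes had a called interaction.

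In data outside the gene table, the 3' probe set for 18S ribosomal RNA averaged 11.15 (log2) on the activated T arrays, above the 6.39 of the activated B arrays.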

How the results depend on the processing

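The 123 differences at 4 h and 37 interactions of the genes chosen by rule were recomputed under 25 other settings, and 0 reversed. The interactions were not run with the 6 arrays at 4 h alone, and the test against 2-fold was not applied to them. Most of these genes were chosen for large differences in the same data, so a reversal was unlikely from the start. The 4 h differences of the named closed genes and other genes in the text were not run. Of the list medians these changed sign. The median of the Myc network, 0.01, became -0.08 with equal array medians, and that of the TGF-beta, Notch and Wnt list, -0.004, became 0.10 with cyclic loess, 0.002 without B cell 4 h replicate 3 and 0.01 without T cell 4 h replicate 3. The median over all genes, -0.26, became 0 with no filter. A test against a 2-fold difference (limma treat) reduced the calls to 757 towards B and 1688 towards T cells, the turned genes to 21 and 38, the genes that arose towards B cells to 213 and the closed T cell genes to 262; it asks for a difference above 2-fold by construction, and Polr1a (1.29, adjusted p = 0.057) and Idi1 (1.18, adjusted p = 0.076) no longer passed. Taking the probe set with the largest variance gave 1794 genes at least 2-fold higher in B cells, 1115 of them kept and 234 between, and averaging probe sets gave 207 between on the T cell side; the cause was not tested. Cyclic loess shared 91.6% of the kept and 83.4% of the arisen genes with the analysis given above, and averaging probe sets 71.5% and 62.1%. Leaving out 1 array at a time gave 2413 to 2549 genes higher in B and 4368 to 4558 in T cells, 1014 to 1077 and 2194 to 2306 at least 2-fold, 529 to 554 and 1091 to 1146 kept, 318 to 359 and 688 to 776 arisen, 48 to 52 and 73 to 79 turned, 107 to 137 and 289 to 368 between, 366 to 385 and 448 to 516 closed, and 5754 to 6067 called for the interaction. The replicate number as a block gave 2498 and 4492 calls. Deviations of same-numbered samples from their group means correlated at -0.46 to 0.24. With 3 arrays per group this cannot tell if the numbers pair the samples, and the labels do not say. Signal near the floor limits the differences given as lower bounds.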
